A study of Homo sapiens with 14 samples.

Results

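The BCL2 family genes described here are 10 regulators of apoptosis, chosen by symbol: BCL2, BCL2L1, BCL2L2, MCL1, BAX, BAK1, BCL2L11, BBC3, PMAIP1 and BID. All 10 were found, each under a single identifier, among the 17810 genes listed for the EGFP and OmoMYC libraries and among the 19143 genes listed for the DMSO and dTAG47 libraries. RNA-seq was done on CHP-134 cells, an established human neuroblastoma line in which the MYCN gene is amplified. In the first experiment, populations carrying a lentiviral Tet-inducible transgene, selected with G418, received 1 µg/ml doxycycline for 3 days to induce EGFP (3 replicates) or OmoMYC (3 replicates), a mutated MYC dimerization domain that competes with MYC proteins. In the second, parental CHP-134 cells, which carry no transgene and no tagged protein, received DMSO (4 replicates) or 500 nM dTAG47 (4 replicates) for 18 h. dTAG47 is a degrader that links proteins carrying an FKBP12 tag to the ubiquitin ligase cereblon, and the parental cells lack such a tag. Both arms of the first experiment received doxycycline, and all replicates were named biological replicates by the study.

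BCL2 proteins control whether the outer membrane of mitochondria stays intact. The anti-apoptotic proteins BCL2, BCL-XL (encoded by BCL2L1), BCL-W (BCL2L2) and MCL1 hold the pore-forming effectors BAX and BAK in check, and the BH3-only proteins BIM (BCL2L11), PUMA (BBC3), NOXA (PMAIP1) and BID either occupy the anti-apoptotic proteins or activate the effectors directly. NOXA binds MCL1 in preference to most other anti-apoptotic members, whereas PUMA and BIM bind all of them. MYC proteins are known to sensitize cells to apoptosis, and many neuroblastoma lines depend on MCL1, BCL2 or BCL-XL.

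MYC and N-MYC bind E-boxes, of which the canonical form reads CACGTG, so the sequence before the gene start is shown for the 4 members called changed under OmoMYC and for BAX, which has the most CACGTG matches of the 8 members with a window. The 250 bases upstream of the gene start were taken from RefSeq on GRCh38.p14, 5′ to 3′ on the gene's strand, with CACGTG in capitals. For BCL2L1, the first of its 2 windows by coordinate is printed.

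BCL2L1, chr20:31722869-31723118, minus strand: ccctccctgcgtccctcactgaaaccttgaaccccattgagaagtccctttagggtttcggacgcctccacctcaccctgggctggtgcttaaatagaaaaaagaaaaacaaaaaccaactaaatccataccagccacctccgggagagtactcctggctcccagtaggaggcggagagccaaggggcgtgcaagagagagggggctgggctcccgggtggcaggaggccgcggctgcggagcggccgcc
BBC3, chr19:47232668-47232917, minus strand: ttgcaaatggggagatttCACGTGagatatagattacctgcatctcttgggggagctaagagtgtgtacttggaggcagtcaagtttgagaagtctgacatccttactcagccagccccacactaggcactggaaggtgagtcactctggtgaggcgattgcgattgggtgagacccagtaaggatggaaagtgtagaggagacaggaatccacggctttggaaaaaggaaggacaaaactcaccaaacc
BCL2, chr18:63319770-63320019, minus strand: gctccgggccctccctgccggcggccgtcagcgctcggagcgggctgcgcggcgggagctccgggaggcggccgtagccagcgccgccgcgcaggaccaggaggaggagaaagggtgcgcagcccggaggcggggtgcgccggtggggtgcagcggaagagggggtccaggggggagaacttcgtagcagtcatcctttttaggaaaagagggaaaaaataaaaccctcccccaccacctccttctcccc
PMAIP1, chr18:59899746-59899995, plus strand: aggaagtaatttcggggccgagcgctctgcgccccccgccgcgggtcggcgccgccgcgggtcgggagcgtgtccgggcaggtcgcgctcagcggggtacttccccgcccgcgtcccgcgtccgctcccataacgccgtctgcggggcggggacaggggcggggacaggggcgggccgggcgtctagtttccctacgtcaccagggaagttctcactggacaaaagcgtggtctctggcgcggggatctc
BAX, chr19:48954625-48954874, plus strand: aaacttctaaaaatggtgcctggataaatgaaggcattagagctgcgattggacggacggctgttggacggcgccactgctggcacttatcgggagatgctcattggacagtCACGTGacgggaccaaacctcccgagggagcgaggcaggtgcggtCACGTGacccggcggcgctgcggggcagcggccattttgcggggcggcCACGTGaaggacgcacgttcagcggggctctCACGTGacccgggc

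Of the 10 members, 8 had a RefSeq window, 13 windows in all, and BCL2L2 and MCL1 are named only. CACGTG, which reads the same on both strands, was found in windows of 3 of the 8 members. BAX held 4 matches, which began 138, 93, 45 and 14 bases before its start. BBC3 held 1 match that began 232 bases upstream. BID held 1 match in 2 of its windows, 106 and 47 bases upstream of the respective starts. These windows overlap, and the match is the same site. No CACGTG was in the windows of BCL2, BCL2L1, BAK1, BCL2L11 or PMAIP1. The same motif was found in 6.34% of all 35116 RefSeq windows of this length. This share is per window, whereas the 3 of 8 are members, some of which have more than 1 window. The variant CACGCG, searched on both strands, was found in the BCL2L11 window only, 146 bases upstream, and in 9.72% of all windows. The 3 members with a CACGTG comprised 1 that was called higher under OmoMYC (BBC3) and 2 that were not called (BAX and BID). These matches describe the letters of the windows and show no binding.

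**Figure D1:**
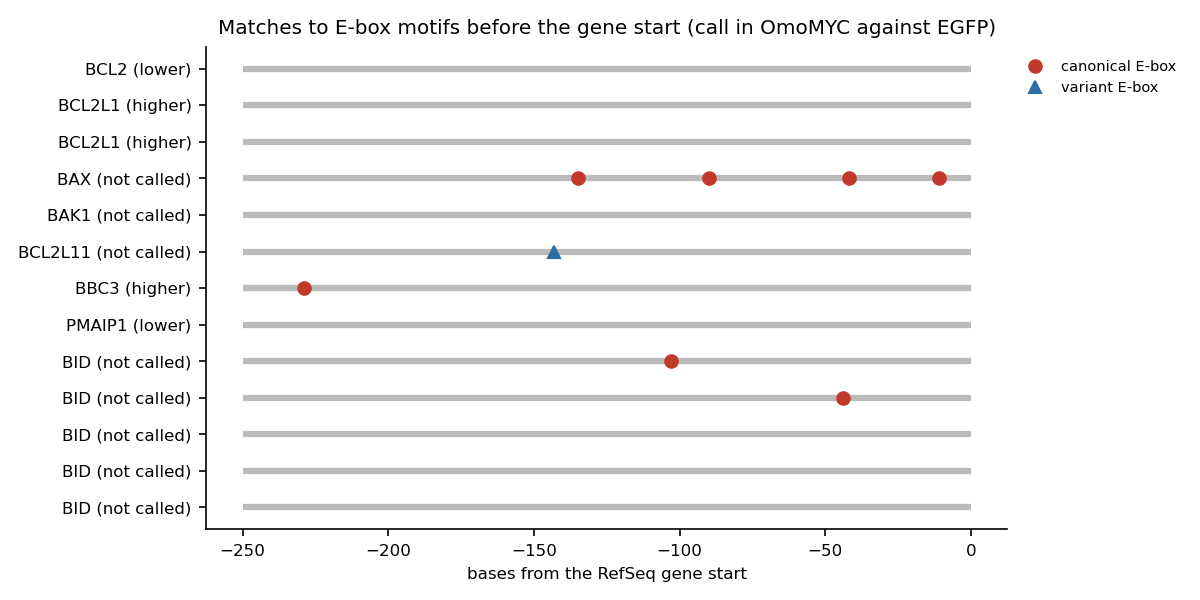
Positions of E-box motifs in the 13 RefSeq windows of 8 BCL2 family members, with the distance in bases from the gene start on the horizontal axis and the call under OmoMYC in brackets. BAX carries 4 canonical E-boxes, BBC3 1, and BID 1 in 2 of its windows, while the single variant motif lies before BCL2L11.

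Library totals ranged from 28060817 to 38358128 counts in the OmoMYC experiment and from 40861430 to 53451641 in the parental experiment. The label of the OmoMYC libraries was checked on reads assigned to MYC, from which OmoMYC is derived. These came to 15040 to 20295 counts in OmoMYC libraries against 16 to 20 in EGFP libraries, while MYCN stood at 2182 to 2312 CPM (counts per 1000000 of the TMM-scaled library size) against 2408 to 2900. Of 10 neuroblastoma markers, all 10 were tested in both experiments, and their summed level ran from 1763 to 2153 CPM over the libraries of the first and from 1985 to 2126 CPM over those of the second. TH and DBH, which define noradrenergic cells, were the lowest of these in EGFP cells at 0.238 and 0.405 CPM. Of 12 markers of other cell types, 6 passed the filter on low counts in each experiment. Summed over the 10 and 11 used in the respective experiments, tested or not, levels were 77.4 to 93.0 CPM and 39.8 to 48.8 CPM. The library labelled dTAG47 replicate 2 stood apart in its keratins, with 202 counts of KRT8 and 46 of KRT18 against at most 4 and 0 in the other parental libraries.

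To ask how inhibition of MYC proteins changes the family, OmoMYC was compared with EGFP. BCL2L1 and BBC3 rose, BCL2 and PMAIP1 fell, and the other 6 members were not called. The 4 changes ran from a fall of PMAIP1 to 0.485 of its EGFP level to a 2.36-fold rise of BBC3, and each role in the family other than the effectors held 1 gene that rose and 1 that fell. Genes were called at an adjusted p below 0.05 in edgeR's quasi-likelihood test, fitted over all 13803 genes that passed the filter. Under this rule 27.3% of all tested genes were called higher and 25.7% lower, against 2 and 2 of the 10 members. Groups did not overlap for 5 of 10 members, against 62.3% of all tested genes. The share of the family that changed was thus not above that of the transcriptome. The median log2 fold change was 0.05 over the members and 0.01 over all tested genes.

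**Figure D2:**
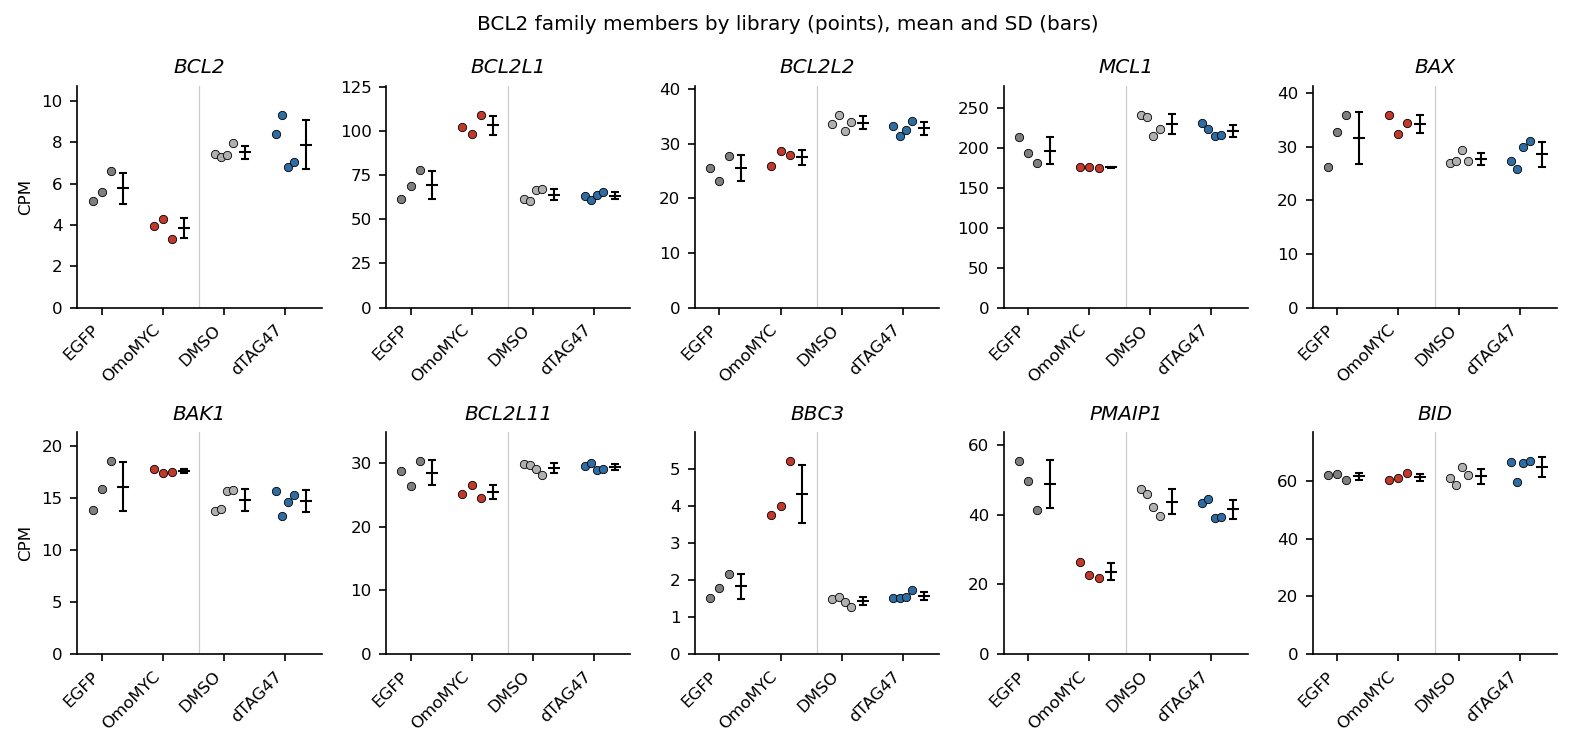
Expression of the 10 members in CPM (vertical axes, starting at 0) in each library (points) of the EGFP, OmoMYC, DMSO and dTAG47 groups, with the mean and SD beside them. The thin line separates the experiments, which were scaled separately. OmoMYC points lie clear of EGFP points for BCL2, BCL2L1, MCL1, BBC3 and PMAIP1, and DMSO and dTAG47 points overlap for every member.

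Among the anti-apoptotic members, BCL2L1, which encodes BCL-XL and lies at chr20:30252255-30311792 on GRCh37, measured 61.5, 68.8 and 77.6 CPM in EGFP replicates 1 to 3 and 102, 98.4 and 109 CPM in OmoMYC replicates 1 to 3. Every OmoMYC library was above every EGFP library. The difference was a log2 fold change of 0.57 (SE 0.09, n = 3 per group), or 1.49-fold (95% interval 1.29 to 1.71), with an adjusted p of 0.000507 from edgeR. BCL2, the founding member of the family (chr18:60790579-60987361), moved the other way. Its level was 5.14, 5.59 and 6.61 CPM under EGFP and 3.96, 4.28 and 3.32 CPM under OmoMYC. The groups did not overlap in CPM, although they rest on only 156 to 192 and 101 to 165 counts and the raw counts do overlap. The log2 fold change was -0.58 (SE 0.15, adjusted p = 0.00725 from edgeR), which left BCL2 at 0.667 of its EGFP level.

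MCL1, a short-lived anti-apoptotic protein (gene at chr1:150533371-150552214), was the most abundant member in every group. It measured 214, 194 and 181 CPM under EGFP and 176, 176 and 175 CPM under OmoMYC. All OmoMYC libraries were below all EGFP libraries, EGFP replicate 3 by the least. The log2 fold change of -0.16 (95% interval -0.32 to -0.0004) did not pass the threshold (adjusted p = 0.0839 from edgeR). Without EGFP replicate 3 it was -0.25 and was called, with an adjusted p of 0.00752, while no other alternative called it. BCL2L2, which encodes BCL-W (chr14:23767999-23780960), measured 25.6 ± 2.31 CPM under EGFP and 27.5 ± 1.44 under OmoMYC (SD, n = 3). The groups overlapped, with a log2 fold change of 0.11 (95% interval -0.10 to 0.31, adjusted p = 0.348 from edgeR). BCL2L2 overlaps a read-through gene, BCL2L2-PABPN1, listed with 2 to 13 counts here, so its own count is less certain than those of the other members.

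Neither effector passed the test. BAX, which is cytosolic until activated (chr19:49458072-49465055), measured 26.3, 32.8 and 35.9 CPM under EGFP and 35.9, 32.5 and 34.4 CPM under OmoMYC. BAK1, whose product sits in the mitochondrial membrane (chr6:33540324-33548070), measured 13.9, 15.9 and 18.6 CPM against 17.9, 17.5 and 17.5 CPM. EGFP libraries spread more widely than OmoMYC libraries for both genes, and the groups overlapped. The log2 fold changes were 0.12 for BAX (95% interval -0.13 to 0.36, adjusted p = 0.402) and 0.13 for BAK1 (-0.11 to 0.37, adjusted p = 0.343), both from edgeR. Changes of up to 1.28-fold and 1.29-fold thus lie within these intervals.

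Among the BH3-only members, BBC3, which encodes PUMA and is a textbook p53 target (chr19:47724079-47736023), measured 1.51, 1.79 and 2.17 CPM under EGFP and 3.75, 3.997 and 5.20 CPM under OmoMYC. Every OmoMYC library was above every EGFP library, on 110 to 158 counts against 48 to 63. The log2 fold change was 1.24 (SE 0.19, adjusted p = 0.000357 from edgeR), and 94.4% of all tested genes changed by less in absolute terms. PMAIP1, which encodes NOXA (chr18:57567228-57571537), fell. It measured 55.4, 49.8 and 41.5 CPM under EGFP and 26.4, 22.7 and 21.9 CPM under OmoMYC, with no overlap. The log2 fold change of PMAIP1 was -1.05 (SE 0.12, adjusted p = 5.22e-05 from edgeR), larger in absolute terms than that of 92.3% of tested genes. PUMA and NOXA transcripts therefore moved in opposite directions.

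BCL2L11, which encodes BIM (chr2:111876955-111926021), measured 28.8, 26.4 and 30.3 CPM under EGFP and 25.1, 26.7 and 24.6 CPM under OmoMYC. One OmoMYC library lay above the lowest EGFP library, and the log2 fold change of -0.16 (95% interval -0.35 to 0.02) was not called (adjusted p = 0.125 from edgeR). BID, which is cut by caspase-8 to link death receptors to mitochondria (chr22:18216904-18257536), measured 62.0, 62.2 and 60.3 CPM against 60.2, 60.9 and 62.6 CPM. These values were interleaved. The log2 fold change of BID was -0.01, the smallest of the family in absolute terms, with a 95% interval of -0.15 to 0.14, or 0.898-fold to 1.10-fold.

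**Figure D3:**
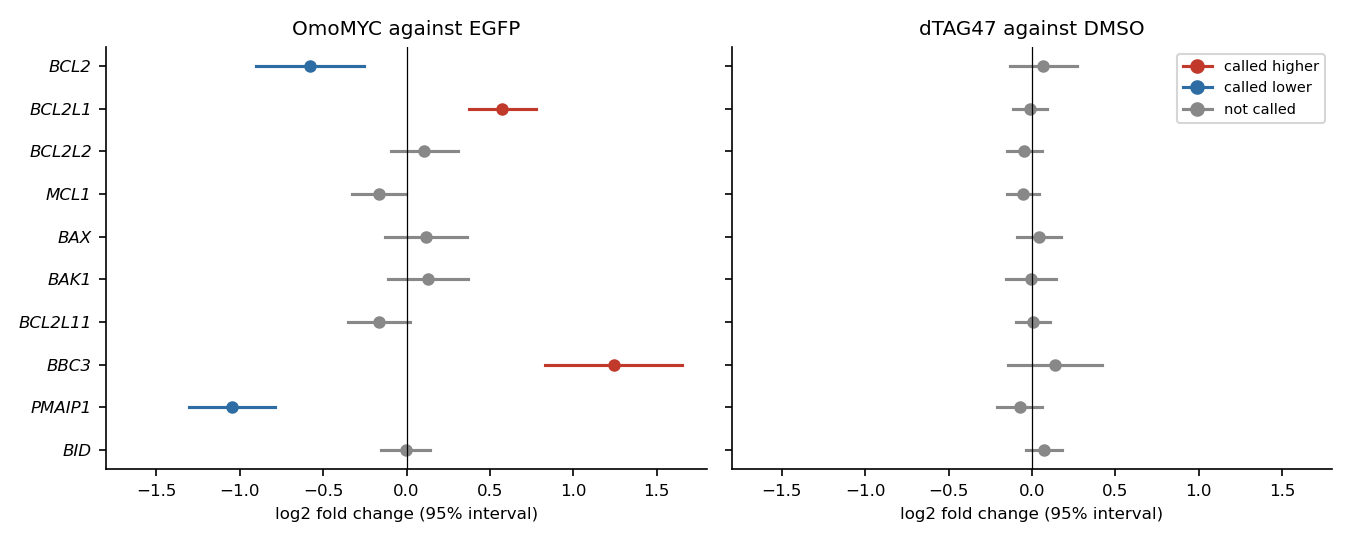
Log2 fold change of each member with its 95% interval from edgeR's fit, for OmoMYC against EGFP (left) and dTAG47 against DMSO (right), coloured by call. BBC3 at 1.24 and BCL2L1 at 0.57 lie above 0 and PMAIP1 at -1.05 and BCL2 at -0.58 below it on the left, while all 10 intervals on the right include 0.

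Levels of different members were compared per length, as CPM per kb of the union of their exons. Under EGFP the order was MCL1 (31.6 ± 2.68 CPM per kb, SD, n = 3), PMAIP1 (22.4 ± 3.20), BCL2L1 (16.5 ± 1.93), BID (13.9 ± 0.240), BAX (12.2 ± 1.89), BAK1, BCL2L2, BCL2L11, BBC3 and BCL2. BID and BAX, and BBC3 (0.573 ± 0.103) and BCL2 (0.458 ± 0.0598), overlapped in their ranges, and other neighbours did not. Under OmoMYC, BCL2L1 had rank 2 at 24.6 ± 1.28 CPM per kb, close behind MCL1 at 28.2 ± 0.109, and PMAIP1 moved from rank 2 to rank 5 at 10.8 ± 1.10. BBC3 (1.35 ± 0.243) and BCL2 (0.306 ± 0.0387), which overlapped under EGFP, were apart under OmoMYC. With the longest transcript in place of the union of exons, MCL1 stayed first in every group and BCL2 and BBC3 stayed the last 2, whereas BID and BAX both ranked above BCL2L1 in EGFP, DMSO and dTAG47 libraries, BID above PMAIP1 in DMSO and dTAG47 libraries, and BAX above BID in OmoMYC libraries.

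The make-up of the anti-apoptotic pool followed from these levels. MCL1 contributed 62.9%, 59.1% and 54.0% of the summed per-length level of the 4 genes in EGFP replicates 1 to 3 and 48.6%, 48.7% and 46.8% in OmoMYC replicates 1 to 3. BCL2L1 contributed 26.7%, 31.0% and 34.3% against 41.7%, 40.5% and 43.2%. Neither share overlapped between the groups, and the share of BCL2 fell from a mean of 0.852% to 0.521%. The sum itself was 53.8 ± 0.988 CPM per kb under EGFP and 58.8 ± 1.18 under OmoMYC. In the BH3-only pool, the share of PMAIP1 was 54.2 ± 3.69% under EGFP and 36.3 ± 2.85% under OmoMYC, and that of BBC3 was 1.41 ± 0.365% and 4.55 ± 0.880%. BID, whose CPM hardly differed, went from 33.98% to 46.5% of a pool whose sum was 41.1 ± 3.17 and 29.8 ± 0.693 CPM per kb. These shares are descriptions of transcript levels and were not tested.

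**Figure D4:**
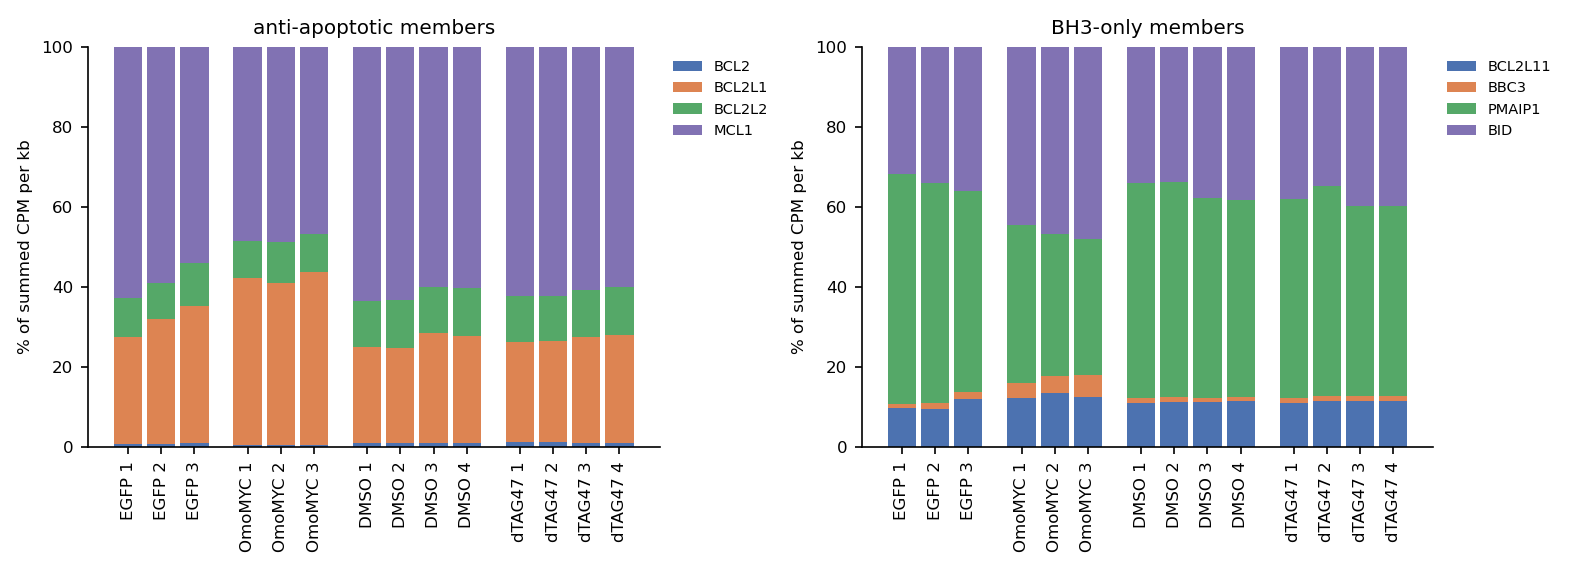
Share of each gene in the summed CPM per kb of the 4 anti-apoptotic members (left) and the 4 BH3-only members (right), 1 bar per library. OmoMYC bars hold more BCL2L1 and less MCL1, and more BID and BBC3 and less PMAIP1, than EGFP bars, while DMSO and dTAG47 bars look alike.

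To ask whether dTAG47 itself acts on these genes in cells without a tagged protein, it was compared with DMSO in parental cells. None of the 10 members was called, at log2 fold changes between -0.07 (PMAIP1) and 0.14 (BBC3) and adjusted p-values of 0.706 to 0.983 from edgeR. Of the 14470 genes tested, 0.117% were called higher and 0.0415% lower, and groups did not overlap for 3.34%, against 0 of the 10 members. At an unadjusted p below 0.05, edgeR named 0 members and 1053 of all genes, and DESeq2 called 0 members. The 95% interval of the fold change was widest for BBC3, at 0.905 to 1.34, and reached down to 0.865 for PMAIP1, while it was 0.923 to 1.06 for BCL2L1, 0.901 to 1.03 for MCL1 and 0.977 to 1.13 for BID.

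The values of the 4 members that moved under OmoMYC were as follows in parental cells. BCL2L1 measured 61.6, 60.5, 66.6 and 67.1 CPM in DMSO replicates 1 to 4 and 63.2, 61.1, 63.5 and 65.6 CPM in dTAG47 replicates 1 to 4 (log2 fold change -0.01). PMAIP1 measured 47.5, 45.9, 42.1 and 39.6 CPM against 43.3, 44.6, 39.2 and 39.3 CPM (-0.07). All dTAG47 values of BCL2L1 lay inside the range under DMSO, and those of PMAIP1 in replicates 3 and 4 lay just below it. BBC3 measured 1.49, 1.55, 1.39 and 1.28 CPM against 1.51, 1.52, 1.53 and 1.72 CPM (0.14, 95% interval -0.14 to 0.42), on 57 to 89 counts. BCL2 measured 7.43, 7.29, 7.39 and 7.97 CPM against 8.40, 9.34, 6.79 and 7.05 CPM (0.07). Its dTAG47 replicates 1 and 2 were above all DMSO libraries and replicates 3 and 4 below all of them, with a log2 fold change of 0.28 within replicates 1 and 2 and -0.16 within replicates 3 and 4. Neither value was called, and the difference between them was not tested.

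MCL1 measured 230 ± 12.4 CPM under DMSO and 221 ± 7.38 under dTAG47 (SD, n = 4), and BCL2L2 33.9 ± 1.22 and 32.9 ± 1.16. BAX measured 27.8 ± 1.12 and 28.6 ± 2.41 CPM, and BAK1 14.8 ± 1.07 and 14.8 ± 1.06. BCL2L11 measured 29.3 ± 0.800 and 29.4 ± 0.504 CPM. The largest of these differences, as a log2 fold change, was -0.06 for MCL1. BID measured 61.6 ± 2.54 CPM under DMSO and 64.8 ± 3.44 under dTAG47, and had the lowest adjusted p of the family (0.706 from edgeR, log2 fold change 0.07). Per length, MCL1 was again first at 36.98 ± 1.99 CPM per kb under DMSO and 35.6 ± 1.19 under dTAG47, followed by PMAIP1 (20.0 ± 1.64 and 19.0 ± 1.27), BCL2L1, BID and BAX in both groups by union exon length. BCL2L1 and BID overlapped in their ranges in both groups, as did BCL2L2 and BAK1. BCL2 and BBC3, the last in order, overlapped under dTAG47 but not under DMSO. MCL1 made up 61.8 ± 1.91% and 61.3 ± 1.12% of the anti-apoptotic pool and BCL2L1 25.5 ± 1.89% and 26.0 ± 0.887%. Values of the 2 experiments were normalized separately and are not compared.

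The rest of the BCL2 family was described from a list of 13 genes, of which 11 were tested in each experiment. Under OmoMYC 4 rose and 1 fell, with a median log2 fold change of 0.10 (2 fell without EGFP replicate 1, with BCL2L12, or without EGFP replicate 3, with BNIP3L). HRK, a neuronal BH3-only gene, rose from 1.17 ± 0.420 to 4.45 ± 0.518 CPM (log2 fold change 1.95, adjusted p = 5.67e-05). BOK, a relative of BAX and BAK, rose from 10.3 ± 2.57 to 17.4 ± 0.985 CPM (0.76, adjusted p = 0.00254). BMF, a BH3-only gene, rose from 8.45 ± 0.802 to 13.7 ± 0.443 CPM (0.69, adjusted p = 0.000308). BAD, a BH3-only gene whose product is controlled by phosphorylation, rose from 13.2 ± 0.569 to 17.1 ± 0.317 CPM (0.37, adjusted p = 0.00474). These 4 rises are set against the 27.3% of all tested genes called higher, and the 1 fall against the 25.7% called lower. BNIP3, a mitophagy receptor with a BH3-like domain, fell from 39.8 ± 1.11 to 27.3 ± 0.280 CPM (-0.54, adjusted p = 0.000175). BIK measured 0.582 and 0.924 CPM on 13 to 35 counts and was not called (0.66, adjusted p = 0.0862). BCL2L12 (-0.43), BCL2L15 (-0.26), BCL2L14 (-0.21), BNIP3L (-0.18) and BCL2L13 (0.10) were not called either, BCL2L10 had at most 1 count, and BCL2A1 was not used here in this experiment.

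Under dTAG47 none of the 11 was called by edgeR, at a median log2 fold change of 0.12. An unadjusted p below 0.05 was found for 4, and for 1053 of all 14470 tested genes. BNIP3 had the smallest adjusted p, 0.107, at 48.1 ± 4.86 CPM under DMSO and 64.5 ± 9.84 under dTAG47 (0.43), with groups that did not overlap. The groups of BMF and BCL2L14 did not overlap either, against 3.34% of all tested genes. DESeq2 called BNIP3 higher (adjusted p = 0.00292), as did edgeR without dTAG47 replicate 2 (0.32, adjusted p = 0.0409), in replicates 3 and 4 alone and with a replicate block, and the last 2 fits also called BNIP3L higher. In replicates 3 and 4 alone, edgeR also called BCL2L14 lower (-0.65, adjusted p = 0.0269). BMF (0.26), HRK (0.28), BNIP3L (0.17), BOK (0.12), BAD (0.10), BCL2L13 (0.04) and BCL2L12 (0.22) had positive values and BCL2L14 (-0.45), BIK (-0.21) and BCL2L15 (-0.04) negative ones. BCL2L10 had at most 2 counts and BCL2A1 none.

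**Figure D5:**
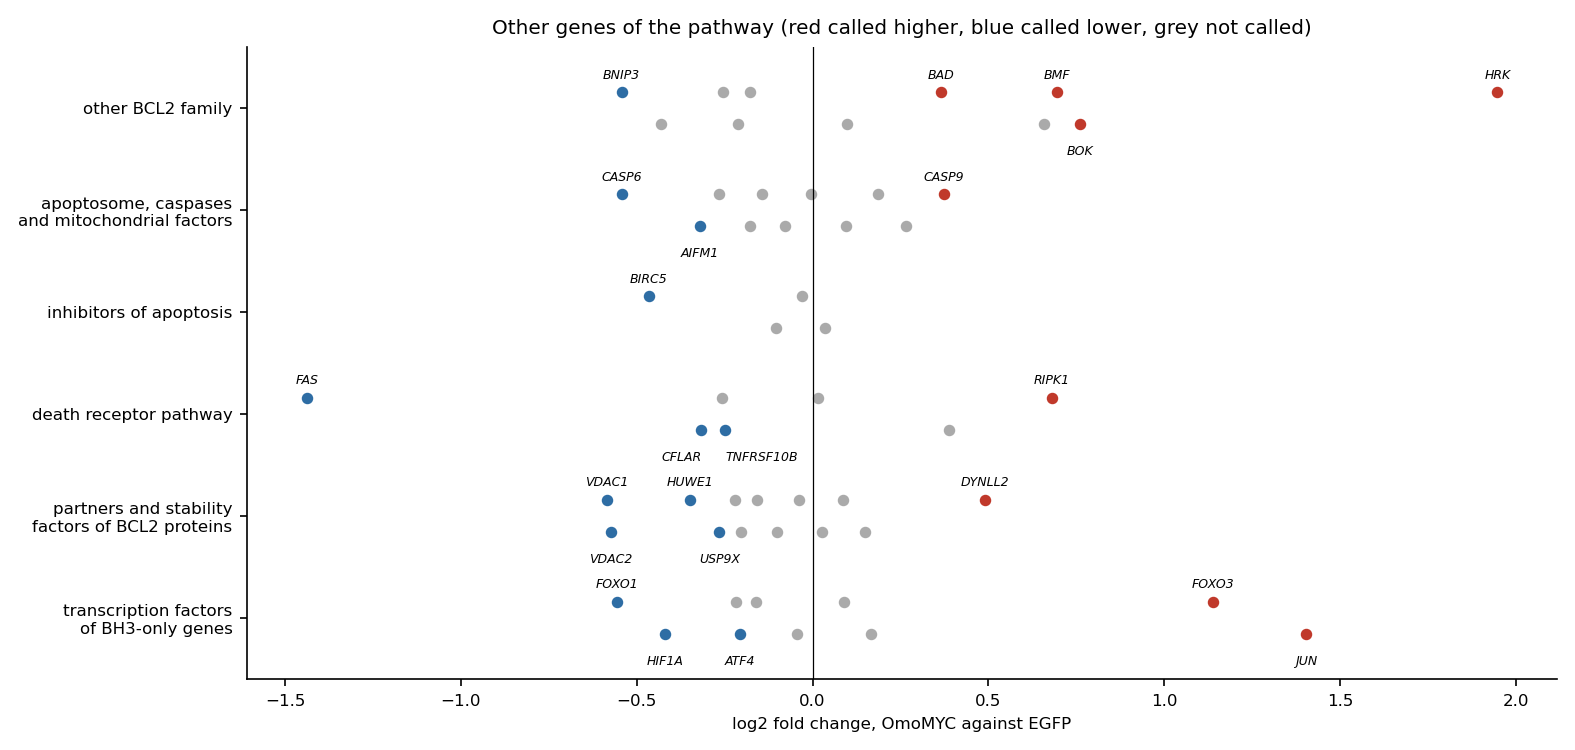
Log2 fold change under OmoMYC (horizontal axis) of the tested genes of 6 lists around the BCL2 family, 1 point per gene, with called genes named. HRK at 1.95 is the farthest to the right and FAS at -1.44 the farthest to the left.

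Downstream of the family, 11 genes of the apoptosome, caspases and other mitochondrial factors were described, of which 1 rose and 2 fell under OmoMYC (median -0.08). Among all tested genes, 27.3% were called higher and 25.7% lower. CASP9, which the apoptosome activates, rose from 11.4 ± 0.613 to 14.8 ± 1.21 CPM (log2 fold change 0.37, adjusted p = 0.00907). CASP6, a caspase that cleaves nuclear lamins, fell from 5.27 ± 1.01 to 3.63 ± 0.482 CPM (-0.54, adjusted p = 0.0183). AIFM1, a mitochondrial flavoprotein, fell as well (57.6 to 46.1 CPM, -0.32, adjusted p = 0.00507). CASP9 was no longer called without OmoMYC replicate 3 (0.27, adjusted p = 0.0703), nor CASP6 without EGFP replicate 2 or OmoMYC replicate 2. The number that fell was 4 without EGFP replicate 1 and with the replicate block. DESeq2 also called ENDOG, another gene of this list, lower (-0.28, adjusted p = 0.0313). Of 4 tested inhibitors of apoptosis, BIRC5 (survivin, also a mitotic protein) fell from 112 ± 3.14 to 81.1 ± 2.96 CPM (-0.47, adjusted p = 0.000281), and the other 3, XIAP, BIRC2 and BIRC6, were not called, except BIRC6, called lower without EGFP replicate 3.

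Of 7 tested genes of the death receptor pathway, 1 rose and 3 fell under OmoMYC (median -0.25). The shares of all tested genes to set beside this and the next list are 27.3% called higher and 25.7% lower. RIPK1, a kinase of receptor complexes, rose from 12.6 ± 1.72 to 20.1 ± 0.291 CPM (0.68, adjusted p = 0.000441). The receptors FAS (0.769 to 0.276 CPM on 5 to 34 counts, -1.44, adjusted p = 0.0122) and TNFRSF10B (119 to 100.3 CPM, -0.25, adjusted p = 0.0122) fell, as did CFLAR, an inhibitor of caspase-8 (27.3 to 21.9 CPM, -0.32, adjusted p = 0.0112). Of 13 tested partners and stability factors of BCL2 proteins, 1 rose and 4 fell (median -0.16), or 7 fell without EGFP replicate 3. DYNLL2, a dynein light chain that binds BMF, rose from 136 ± 6.60 to 191 ± 3.98 CPM (0.49). The mitochondrial channels VDAC1 (259 to 173 CPM, -0.58) and VDAC2 (191 to 128 CPM, -0.57) fell. HUWE1, a ubiquitin ligase for MCL1, fell as well (25.9 to 20.4 CPM, -0.35), but its symbol stands under 2 identifiers in this table and its count is uncertain.

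Of 10 transcription factors known to act on BH3-only genes, 2 rose and 3 fell under OmoMYC (median -0.10), against 27.3% and 25.7% of all tested genes. However, 6 fell without EGFP replicate 1 and 1 fell without EGFP replicate 2. JUN rose from 67.0 ± 9.20 to 177 ± 11.4 CPM (1.40, adjusted p = 2.37e-06), and FOXO3, a known activator of BCL2L11 and BBC3, from 34.6 ± 1.01 to 76.3 ± 0.832 (1.14, adjusted p = 6.84e-07). FOXO1 (2.03 to 1.38 CPM, -0.55), HIF1A (282 to 211 CPM, -0.42) and ATF4 (264 to 229 CPM, -0.21) fell, of which HIF1A alone was called in every fit that left out 1 library. DESeq2 did not call FOXO1 (-0.57, adjusted p = 0.0546) and called TFAP4 lower (-0.23, adjusted p = 0.0347). In parental cells no gene of these 5 lists was called by edgeR or DESeq2, and 2, both transcription factors, had an unadjusted p below 0.05 in edgeR. With a replicate block XIAP was called lower, and with a factor for replicates 1 and 2 against 3 and 4 XIAP was called lower and JUN higher, as was JUN in replicates 3 and 4 alone. The smallest adjusted p-values there were 0.682 for DIABLO (log2 fold change -0.09), 0.675 for XIAP (-0.13), 0.705 for TRADD (0.20), 0.682 for USP9X (-0.07) and 0.673 for FOXO1 (-0.52), FOXO3 (0.13) and JUN (0.10).

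Cell type markers also differed between EGFP and OmoMYC libraries: 6 of 10 neuroblastoma markers were called higher, against 27.3% of all tested genes. Of the 6 tested markers of other cell types, COL1A1 was called higher and COL1A2 and PTPRC lower, where 25.7% of all tested genes were lower. The part of these differences in the changes of the BCL2 family was not tested. In bulk RNA, fewer cells expressing a gene and less RNA per cell cannot be told apart, and the selected populations differ in their transgene as well as its product.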

How the data were processed

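RNA-seq of 14 CHP-134 libraries was used: 3 EGFP, 3 OmoMYC, 4 DMSO and 4 dTAG47. The authors describe depletion of ribosomal RNA for another experiment of the study and similar processing for the parental libraries. For the EGFP and OmoMYC libraries their paper does not name this step. Reads went through Cutadapt, were mapped by STAR (build hg19) and assigned to genes by featureCounts, and the deposited values are the resulting raw counts per gene. The annotation, the strand setting and the versions of these tools are not given in the sources used here. The members, gene lists and tests were chosen with earlier results of these data known.

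Analyses used R 4.3.3. In each table separately, genes were filtered with filterByExpr of edgeR 4.0.16, scaled by TMM and tested by its robust quasi-likelihood test, with Benjamini-Hochberg adjustment over all tested genes at 0.05. Fold changes, SE, intervals (95%) and all adjusted p-values in the report come from this fit unless another tool is named. With 3 libraries against 3, an exact permutation test cannot give a p below 0.1, and with 4 against 4 below 0.0286, so none was used. Exon lengths came from GENCODE annotation lifted to GRCh37. Alternatives were DESeq2 1.42.0, voom of limma 3.58.1, other scalings and filters, a replicate block, a factor for parental replicates 1 and 2 against 3 and 4, these replicates alone, and leaving out each library. The fits were tested on simulated data.

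All 10 members, every other BCL2 family gene in a table and, of each further list, up to 3 called genes with the largest rise and 3 with the largest fall are named, or the gene with the smallest adjusted p where none was called. Some genes of these lists are not reported here and were left out of the list counts.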

Additional observations from a re-analysis of the deposited data

Results flagged for a closer look

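In 3 of the 20 groups of 4 parental libraries tested (10 members in DMSO and in dTAG47), 1 library lay farther from the others than Dixon's 95% limit allows, and chance alone flags about 1 in 20 groups. BAX measured 29.4 CPM in DMSO replicate 3 against 27.03 to 27.34 in the other DMSO libraries. BBC3 measured 1.72 CPM in dTAG47 replicate 4 against 1.51 to 1.53 in the others. BID measured 59.6 CPM in dTAG47 replicate 2, the library with keratin counts, against 66.2 to 66.7 in the others. No member was called in parental cells with or without any of these libraries.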

How the results depend on the processing

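The 4 members called under OmoMYC, BCL2L1, BBC3, BCL2 and PMAIP1, kept their call and direction in all 14 alternatives. Their log2 fold changes ranged from 0.48 to 0.63, 1.06 to 1.35, -0.70 to -0.50 and -1.18 to -0.96. MCL1 was called without EGFP replicate 3 only. No member was called under dTAG47 in any of 19 alternatives.

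Signs changed only for members that were not called. The reversed values were near 0, apart from BCL2 in parental replicates 3 and 4. Under OmoMYC, BID was at 0.00899 with library size only and 0.00348 with at least 10 counts in every library, and leaving out 1 library gave -0.0543 to 0.00546 for BID and -0.0201 to 0.184 for BAX. Under dTAG47, BCL2L11 was at -0.00362 with library size only. Replicates 1 and 2 alone gave 0.0367 for BCL2L1, -0.0226 for BAX and 0.0687 for BAK1. Replicates 3 and 4 alone gave 0.00121 for BCL2L2 and -0.157 for BCL2, which was at 0.282 in replicates 1 and 2 alone. Leaving out 1 parental library gave -0.0380 to 0.0148 for BCL2L1, -0.0382 to 0.0416 for BAK1, -0.00783 to 0.0180 for BCL2L11, -0.0273 to 0.135 for BCL2 and -0.00182 to 0.0882 for BAX.

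Same-numbered replicates did not deviate together throughout, with correlations of 0.11, -0.09 and 0.40 in the first experiment and 0.07, 0.25, 0.22 and 0.31 in the second, and not every library correlated best with its own number. In the second experiment, DMSO and dTAG47 libraries correlated at 0.07 to 0.39 within replicates 1 and 2 or within replicates 3 and 4. Between these sets all correlations were negative, at -0.37 to -0.07. Deviations were taken from each group's mean and cancel there, so positive correlations with some libraries force negative ones with others. The main fit held no term for replicates 1 and 2 against 3 and 4. With the replicate block, 8100 genes were called under OmoMYC (7311 without it) and 668 under dTAG47 (23 without it), with the same 2 members higher, 2 lower and 0 members under dTAG47. The number of all genes called under dTAG47 was 59 with DESeq2, 794 with a factor for replicates 1 and 2 against 3 and 4, 7 in replicates 1 and 2, 896 in replicates 3 and 4, and 6 to 84 when 1 library was left out, the highest without dTAG47 replicate 2. Precision is limited for BBC3 and BCL2, which rest on the fewest counts.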
